A study of Mus musculus with 12 samples.

Results

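The citric acid cycle and the pyruvate dehydrogenase complex were followed through 30 genes in visceral adipose tissue, out of 20358 genes that the arrays measured. The genes were taken from a fixed list of names by function, and all 30 were measured. They comprise 15 enzymes and enzyme subunits of the cycle, counting the cytosolic forms of aconitase, isocitrate dehydrogenase and malate dehydrogenase, 5 subunits of the pyruvate dehydrogenase complex, its 4 kinases and 2 phosphatases, pyruvate carboxylase and 3 carriers of the inner mitochondrial membrane.

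All animals were male C57Bl/6J mice, 20 weeks old, and every group ate a diet with 20% (w/w) shortening that held 8.68% (w/w) trans fat (TFA). The control group drank plain water (TFA), and the others drank monosodium glutamate at 0.75 g/L (MSG+TFA), aspartame at 0.25 g/L (ASP+TFA) or both at the same concentrations (ASP+MSG+TFA). Mothers were put on the diets when 6 weeks old, and mated 3 weeks later, so the exposure of the offspring began before birth. Each diet had 15 mice, and RNA of 5 mice was pooled for each of 3 arrays (Affymetrix Mouse Gene 1.0 ST), giving 12 arrays. No group without trans fat was analysed here, so each comparison is between mice on the trans fat diet. Per the methods the tissue was a mix of epididymal fat pads, fat around the reproductive organs and omental-mesenteric fat, taken after an overnight fast. P-values measure the spread between pools of mice, not between mice.

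Pyruvate from glycolysis enters mitochondria and is turned into acetyl-CoA by the pyruvate dehydrogenase complex. Kinases (Pdk) switch the complex off by phosphorylation, and phosphatases (Pdp) switch it on again. The cycle oxidises acetyl-CoA and feeds electrons to the respiratory chain, and in white fat citrate is also carried out of the mitochondrion as the source of acetyl-CoA for fatty acid synthesis, while pyruvate carboxylase refills the cycle with oxaloacetate.

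Levels are given as log2 intensity, the median over the probe sets of a gene, and differences as log2 differences between the means of 2 diets with limma's standard error (SE). Genes with an adjusted p below 0.05 and a difference of 1.4-fold or more are termed called. Probes differ in brightness, so levels were not compared between genes as amounts of RNA. The defining adipocyte genes were bright on all 12 arrays, with Adipoq between 12.89 and 13.42, Fabp4 between 14.04 and 14.24 and Plin1 between 11.97 and 12.51, whereas Ucp1, the marker of brown fat, lay between 4.78 and 5.82. Olfactory and vomeronasal receptor genes, most of which are used by sensory neurons, served as a measure of dim signal. Their median over 1169 genes was 6.40 to 6.76 on replicates 1 and 2 of TFA and of MSG+TFA and 5.44 to 5.66 on the other 8 arrays. These 4 arrays, termed raised below, are present in no ASP group. In the set 29 of 30 genes had a mean level above 6.61, the 90th percentile of the receptor genes, as did 11533 genes in all, and the exception was Pdp2 at 5.97.

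The spread between arrays of a diet differed between genes. The within-diet SD ran from 0.11 for Slc25a11, the carrier that exchanges 2-oxoglutarate for malate, to 0.41 for the dim Pdp2. Pdhx spanned 7.95 to 9.14 within TFA alone. Mean levels of the 15 cycle enzymes lay between 9.35 (Suclg2, a subunit of the GTP-forming succinyl-CoA ligase) and 12.55 (Idh3g, a regulatory subunit of the NAD-dependent isocitrate dehydrogenase). Subunits of the pyruvate dehydrogenase complex ran from 8.47 (Pdhx, its E3-binding protein) to 11.00 (Dld, the E3 subunit shared with the 2-oxoglutarate dehydrogenase complex). The kinases ran from 8.44 (Pdk3) to 11.92 (Pdk4), the phosphatases stood at 5.97 and 8.07, pyruvate carboxylase (Pcx) at 12.03 and the carriers between 11.06 and 12.53 (Slc25a1, the citrate carrier).

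The 30 genes tended to be high or low together on an array. TFA replicate 3 held the highest level of 17 of the 30 genes, and MSG+TFA replicate 1 held the lowest level of 19. Measured as the median deviation of the 30 genes from their own means, the TFA arrays stood at -0.09, -0.01 and 0.27, the MSG+TFA arrays at -0.30, -0.06 and 0.09, the ASP+TFA arrays at 0.23, -0.06 and 0.14, and the ASP+MSG+TFA arrays at -0.06, -0.05 and -0.06. The range within a diet was therefore wide in TFA, MSG+TFA and ASP+TFA and narrow in ASP+MSG+TFA. The median level of the set was 10.93 ± 0.20 in TFA, 10.83 ± 0.15 in MSG+TFA, 10.99 ± 0.17 in ASP+TFA and 10.81 ± 0.05 in ASP+MSG+TFA (mean ± SD, n = 3 each), and the arrays of TFA and MSG+TFA overlapped.

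**Figure D1:**
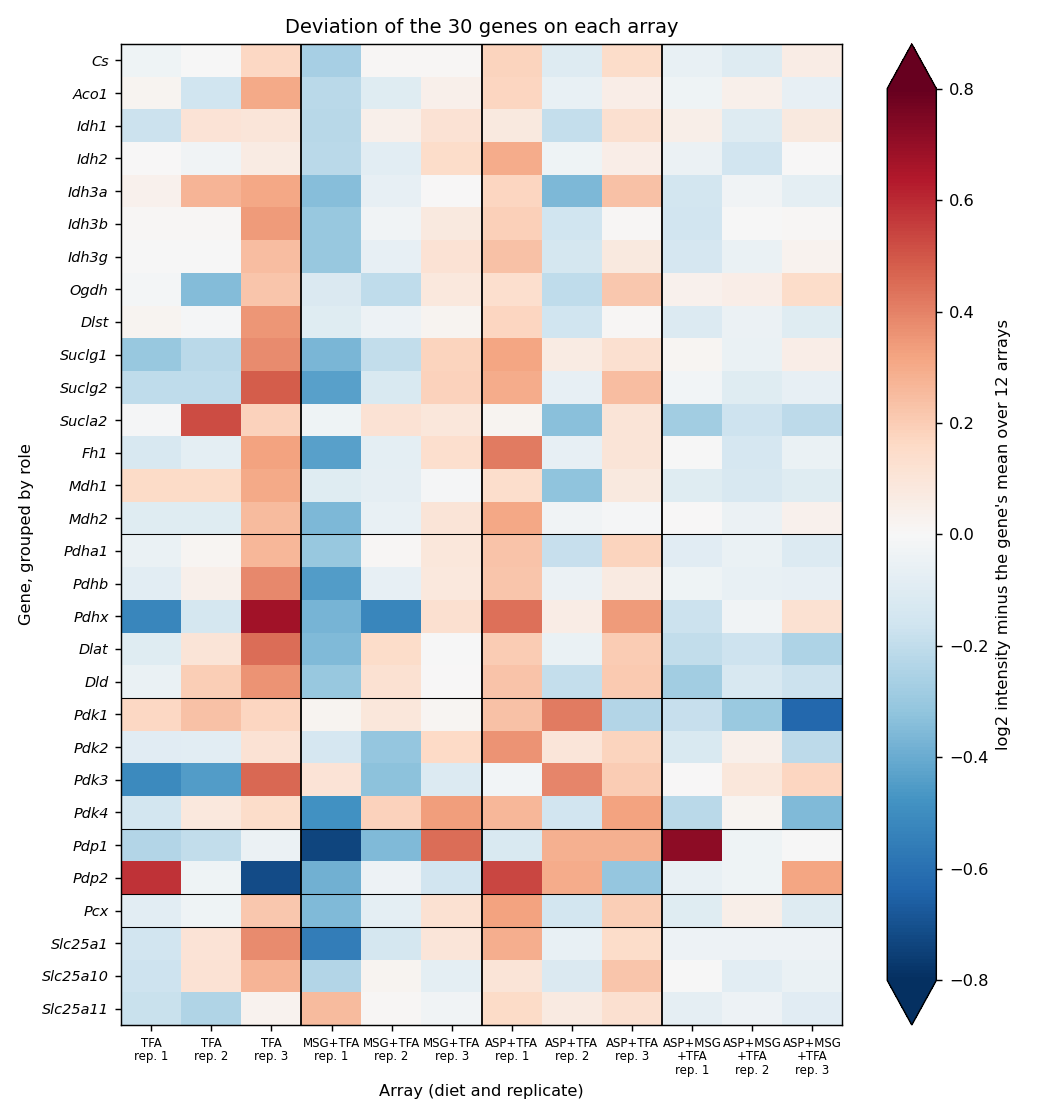
Deviation of each of the 30 genes (rows, grouped by role) from its own mean over 12 arrays, in log2 units, with 1 column per array and vertical lines between diets. TFA replicate 3 is the array where most genes are high (median deviation 0.27), and MSG+TFA replicate 1 the one where most are low (-0.30).

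The genes below are shown with the stretch before their transcription start because they had the smallest p-values in the comparison of ASP+MSG+TFA with TFA: Pdk1, a kinase of the pyruvate dehydrogenase complex, Sucla2, a subunit of the ATP-forming succinyl-CoA ligase, and Mdh1, the cytosolic malate dehydrogenase. The sequences are from RefSeq, build GRCm38.p6, and give the 250 bases before the start from 5′ to 3′ on the strand of the gene, at chr2:71872974-71873223 (plus strand), chr14:73552536-73552785 (plus strand) and chr11:21571935-21572184 (minus strand). Capitals mark matches to 5 motifs that were searched on both strands, the estrogen-related receptor element TNAAGGTCA, the NRF1 element GCGCATGCG, the CCAAT box, the GC box GGGCGG and the hypoxia response core ACGTG.
Pdk1: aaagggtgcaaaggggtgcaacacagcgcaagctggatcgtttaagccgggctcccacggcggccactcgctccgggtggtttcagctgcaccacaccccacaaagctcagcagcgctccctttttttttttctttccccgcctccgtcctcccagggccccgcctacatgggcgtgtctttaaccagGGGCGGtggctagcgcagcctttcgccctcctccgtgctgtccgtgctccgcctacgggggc
Sucla2: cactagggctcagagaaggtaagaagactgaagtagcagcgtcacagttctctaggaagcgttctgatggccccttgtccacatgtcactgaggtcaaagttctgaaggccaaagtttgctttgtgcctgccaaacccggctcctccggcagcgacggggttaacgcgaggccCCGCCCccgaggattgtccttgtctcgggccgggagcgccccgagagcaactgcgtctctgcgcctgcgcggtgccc
Mdh1: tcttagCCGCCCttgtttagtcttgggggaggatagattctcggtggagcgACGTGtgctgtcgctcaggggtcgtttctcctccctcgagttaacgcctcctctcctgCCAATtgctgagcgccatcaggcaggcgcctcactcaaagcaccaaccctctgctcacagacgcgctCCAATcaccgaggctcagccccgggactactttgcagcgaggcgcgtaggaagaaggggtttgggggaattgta
Pdk1 and Sucla2 each carry a single capitalised match, a GC box, whereas Mdh1 carries 4, a GC box, an ACGTG core and 2 CCAAT boxes. In windows from 250 bases before to 50 after the start, 28 of the 30 genes matched the RefSeq table, with 37 promoters. Of these promoters 67.6% held a CCAAT box, against 37.4% of all 32851 promoters of that length, 67.6% held a GC box, against 35.7%, and 37.8% held the ACGTG core, against 19.6%. These are not shares of genes, as a gene can have several promoters, and Ogdh alone gave several of those with an ACGTG core. Counted by gene, 19, 21 and 9 of the 28 held a CCAAT box, a GC box and the ACGTG core. No background by gene was made. The NRF1 element was in 5.41% of the set's promoters, all of them of Ogdh, the E1 subunit of the 2-oxoglutarate dehydrogenase complex, and in 1.75% of all promoters. The estrogen-related receptor element was in 0% of the set's promoters and in 1.28% of all. Where an ACGTG core lies within CACGTG it matches on both strands, and each promoter was counted once.

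The first question was what MSG did on its own on the trans fat background. In MSG+TFA 28 of the 30 genes lay below TFA, by a median of -0.15 (range -0.34 to 0.21), while the median was -0.02 over all genes and 0.03 over genes above the dim level. The small shift covered all 15 cycle enzymes (median -0.15), all 5 pyruvate dehydrogenase subunits (median -0.23), both phosphatases, pyruvate carboxylase (-0.13), 3 of the 4 kinases (median -0.05) and 2 of the 3 carriers. No single gene of the set was called, where 0% of all genes were, and 0 of 30 had an unadjusted limma p under 0.05, where 1.06% of all genes had one with a lower level. The arrays of both diets did not overlap for 3 genes, each lower in MSG+TFA (Idh3a, Mdh1 and Pdk1), a share above the 2.53% of all genes and the 1.86% of genes above the dim level.

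Idh3a, the catalytic subunit of the NAD-dependent isocitrate dehydrogenase, measured 11.19, 11.43 and 11.47 on the TFA arrays and 10.82, 11.09 and 11.16 on the MSG+TFA arrays. Every MSG+TFA array lay below every TFA array, and the difference was -0.34 ± 0.17 (SE; limma unadjusted p = 0.077, adjusted p = 1), or -0.16 ± 0.16 when read from its brightest probe set. In ASP+TFA the gene measured 11.33, 10.80 and 11.39, with replicate 2 the lowest of all 12 arrays, and in ASP+MSG+TFA 11.01, 11.13 and 11.08. Mdh1, which interconverts malate and oxaloacetate in the cytosol, measured 12.51, 12.51 and 12.66 in TFA and 12.26, 12.29 and 12.35 in MSG+TFA, a difference of -0.26 ± 0.13 (unadjusted p = 0.0835, adjusted p = 1 by limma). The TFA arrays of Mdh1 were above those of every other diet.

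Slc25a1 carries citrate out of the mitochondrion and measured 12.38, 12.64 and 12.91 in TFA, against 11.98, 12.39 and 12.63 in MSG+TFA, with overlapping arrays (-0.30 ± 0.19, limma adjusted p = 1; -0.07 ± 0.11 from the brightest probe set). Its levels were 12.82, 12.47 and 12.68 in ASP+TFA, and 12.49 on each ASP+MSG+TFA array. Slc25a11 was the exception in direction, at 10.88, 10.82 and 11.09 in TFA and 11.31, 11.07 and 11.03 in MSG+TFA (0.21 ± 0.12, limma adjusted p = 1). Slc25a11 differed by -0.06 with only the arrays that were not raised, which are replicate 3 of each diet (11.03 against 11.09).

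The lower median rested in part on a pair of arrays. Leaving out TFA replicate 3 gave -0.04, leaving out MSG+TFA replicate 1 gave -0.05, and at the same replicate number MSG+TFA minus TFA was -0.24, -0.04 and -0.18 for replicates 1, 2 and 3. Same-numbered arrays of these diets deviated together, as did some unlike-numbered arrays of other diets. The labels do not say what the numbers mark. With the replicate number as a block, 2 of the 30 genes had an unadjusted limma p under 0.05 in place of 0, Idh3a (-0.34 ± 0.11, adjusted p = 0.781) and Slc25a1 (-0.30 ± 0.11, adjusted p = 0.781), and still none was called. Within TFA the raised arrays lay below the other array by a median of -0.28 over the set, and by -0.24 within MSG+TFA, compared with -0.21 and -0.17 over genes above the dim level. Both diets held 2 raised arrays of 3.

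**Figure D2:**
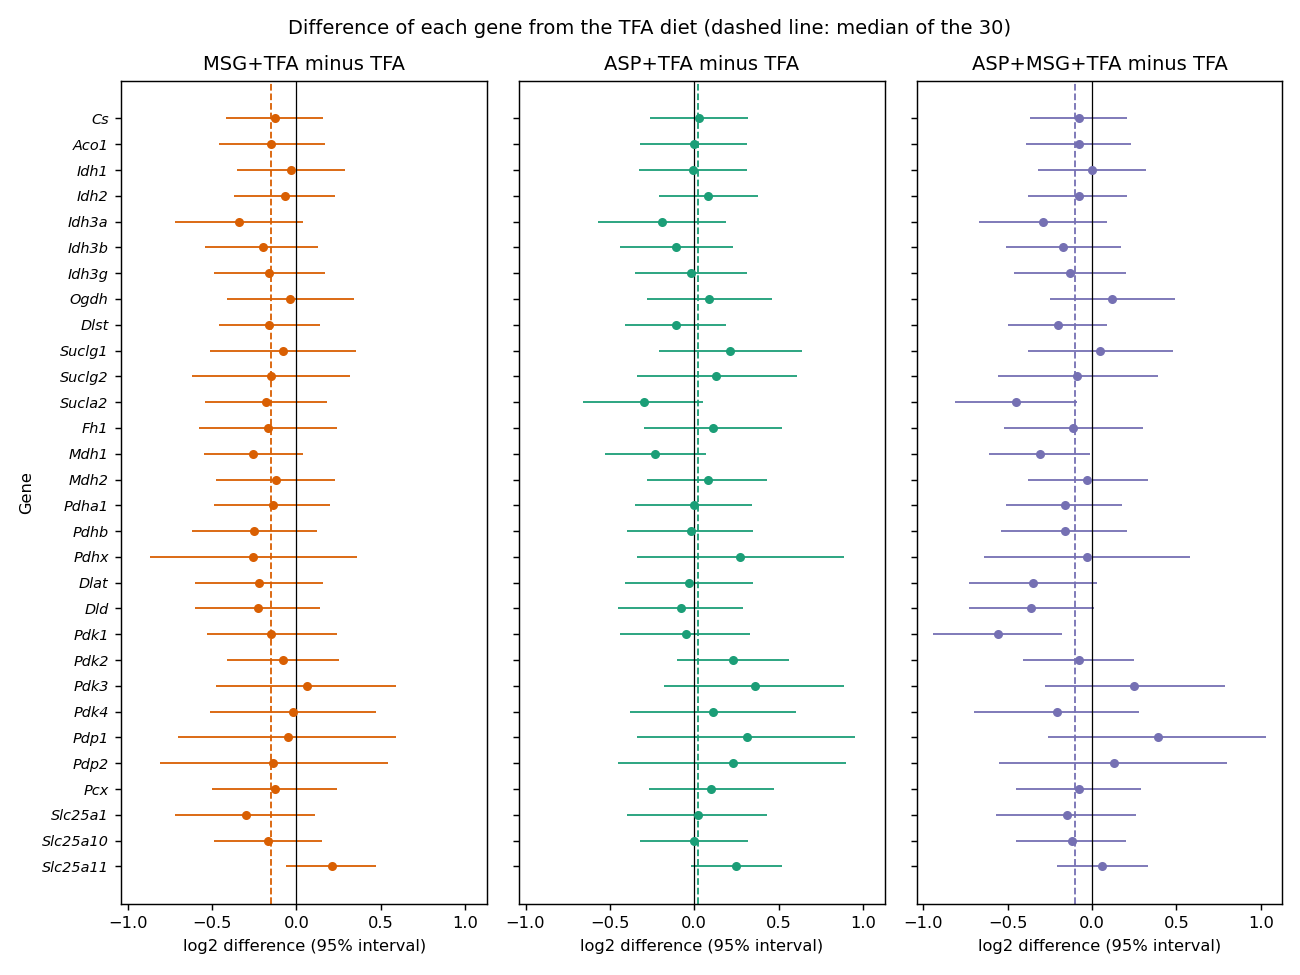
Log2 difference from TFA of each of the 30 genes with its 95% interval, 1 panel per additive diet, with the median of the set as a dashed line. The median is -0.15 with MSG, 0.02 with ASP and -0.10 with both, and the intervals that exclude 0 are those of Pdk1, Sucla2 and Mdh1 with both additives.

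The next question was what ASP did on its own. The set showed no shared direction in ASP+TFA, with 14 genes below TFA and 16 above and a median of 0.02 (range -0.30 to 0.36), where the median was -0.04 over all genes and 0.13 over genes above the dim level. Cycle enzymes were split (8 of 15 below), 4 of the 5 pyruvate dehydrogenase subunits lay just below TFA (median -0.02), and 3 of the 4 kinases and both phosphatases lay above it (medians 0.17 and 0.27). No gene of the set was called (0% of all genes), and 0 of 30 had an unadjusted limma p under 0.05, where 15.7% of all genes had one with a lower level and 6.94% with a higher level. Arrays did not overlap for 1 gene that was lower, Mdh1, against 11.7% of all genes, and for 1 that was higher, Slc25a11, against 7.17%. Both shares are under the background.

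Slc25a11 measured 11.21, 11.13 and 11.19 in ASP+TFA, all above the TFA arrays (0.25 ± 0.12, limma unadjusted p = 0.0685, adjusted p = 0.246), and 10.99, 11.02 and 10.97 in ASP+MSG+TFA. Sucla2 measured 10.43, 10.96 and 10.62 in TFA and 10.46, 10.10 and 10.54 in ASP+TFA (-0.30 ± 0.16, limma adjusted p = 0.272), with overlapping arrays. For Mdh1 the ASP+TFA arrays were 12.50, 12.04 and 12.44, of which only replicate 2 stood well below TFA (-0.23 ± 0.13, limma adjusted p = 0.304).

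These medians moved with the raised arrays, which TFA has and ASP+TFA does not. With the raised arrays as a term in the model the ASP+TFA median became -0.15 with 26 genes below 0. With only the arrays that were not raised it was -0.19. That setting keeps TFA replicate 3 as the only TFA array, which held the highest level of 17 genes of the set (median deviation 0.27). The term in turn compares the raised arrays of TFA and MSG+TFA with replicate 3 of each. The sign of the set in this comparison therefore depended on how these arrays were treated. Among the named genes of this comparison the term left Slc25a11 at 0.22 ± 0.13, Sucla2 at -0.30 ± 0.19 and Mdh1 at -0.31 ± 0.15, and Pdk2 at 0.03 ± 0.13. With only the arrays that were not raised, Slc25a11 stood at 0.09 ± 0.12 and Pdk2 at 0.09 ± 0.17.

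With both additives 24 of the 30 genes lay below TFA, by a median of -0.10 (range -0.56 to 0.39), where the median was -0.05 over all genes and 0.13 over genes above the dim level. The lower genes included 13 of 15 cycle enzymes (median -0.09), all 5 subunits of pyruvate dehydrogenase (median -0.16) and 3 of the 4 kinases (median -0.15), while both phosphatases lay above TFA (median 0.26). None was called (0% of all genes). An unadjusted limma p under 0.05 with a lower level was found for 3 of 30 genes, Pdk1, Sucla2 and Mdh1, against 19.6% of all genes and 6.51% of genes above the dim level. Arrays did not overlap for 9 genes that were lower (Pdk1, Sucla2, Mdh1, Dld, Dlat, Idh3a, Dlst, Idh3b and Pdha1), against 17.9% of all genes and 8.64% of genes above the dim level, and for 1 that was higher, Pdp1, against 13.7% of all genes. The share of 3 genes in 30 lies between both backgrounds, and that of 9 in 30 above both. The count of 3 depended on the processing. It was 13 with the raised arrays as a term, 6 after quantile normalization and 1 with the brightest probe set.

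Pdk1 differed most. Its levels were 8.91, 8.98 and 8.92 in TFA, 8.77, 8.84 and 8.76 in MSG+TFA, 8.98, 9.16 and 8.51 in ASP+TFA, and 8.56, 8.45 and 8.12 in ASP+MSG+TFA. The arrays with both additives lay below every array of TFA and of MSG+TFA, and overlapped with ASP+TFA through its replicate 3. The difference from TFA was -0.56 ± 0.17 (1.47-fold lower, limma unadjusted p = 0.00843, adjusted p = 0.123). The difference was not seen under other summaries of the probe sets. It was -0.01 ± 0.25 with their mean (limma adjusted p = 0.98) and -0.11 ± 0.28 with the brightest (adjusted p = 0.802). Of the 13 probe sets of Pdk1, 7 lay below 0, with a range from -0.92 to 0.85.

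Sucla2 measured 10.16, 10.27 and 10.23 in ASP+MSG+TFA, below every TFA array and also below the MSG+TFA arrays of 10.40, 10.55 and 10.53 (-0.45 ± 0.16 against TFA, limma unadjusted p = 0.0179, adjusted p = 0.129). Of its 13 probe sets 12 lay below 0. Mdh1 measured 12.26, 12.23 and 12.26 (-0.31 ± 0.13, limma unadjusted p = 0.0427, adjusted p = 0.164), and its 11 probe sets all lay below 0, from -1.44 to -0.12. The Mdh1 probe set at -1.44 ± 0.27 had a mean level of 6.93, close to the dim level, and an adjusted p of 0.0942 over all 241576 probe sets in limma. Dld measured 10.95, 11.20 and 11.36 in TFA and 10.72, 10.87 and 10.83 with both additives (-0.36 ± 0.17, limma adjusted p = 0.180), with 10.70, 11.12 and 11.00 in MSG+TFA and 11.23, 10.81 and 11.21 in ASP+TFA. Dlat, the E2 subunit that transfers the acetyl group, differed by -0.35 ± 0.17 (limma adjusted p = 0.197).

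The median of this comparison was -0.02 without TFA replicate 3 and -0.20 without TFA replicate 1. It was -0.32 with the raised arrays as a term and -0.36 with only the arrays that were not raised. In each case 28 genes lay below 0. Without the raised arrays TFA replicate 3 alone stands for TFA, so these values lean on that array.

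**Figure D3:**
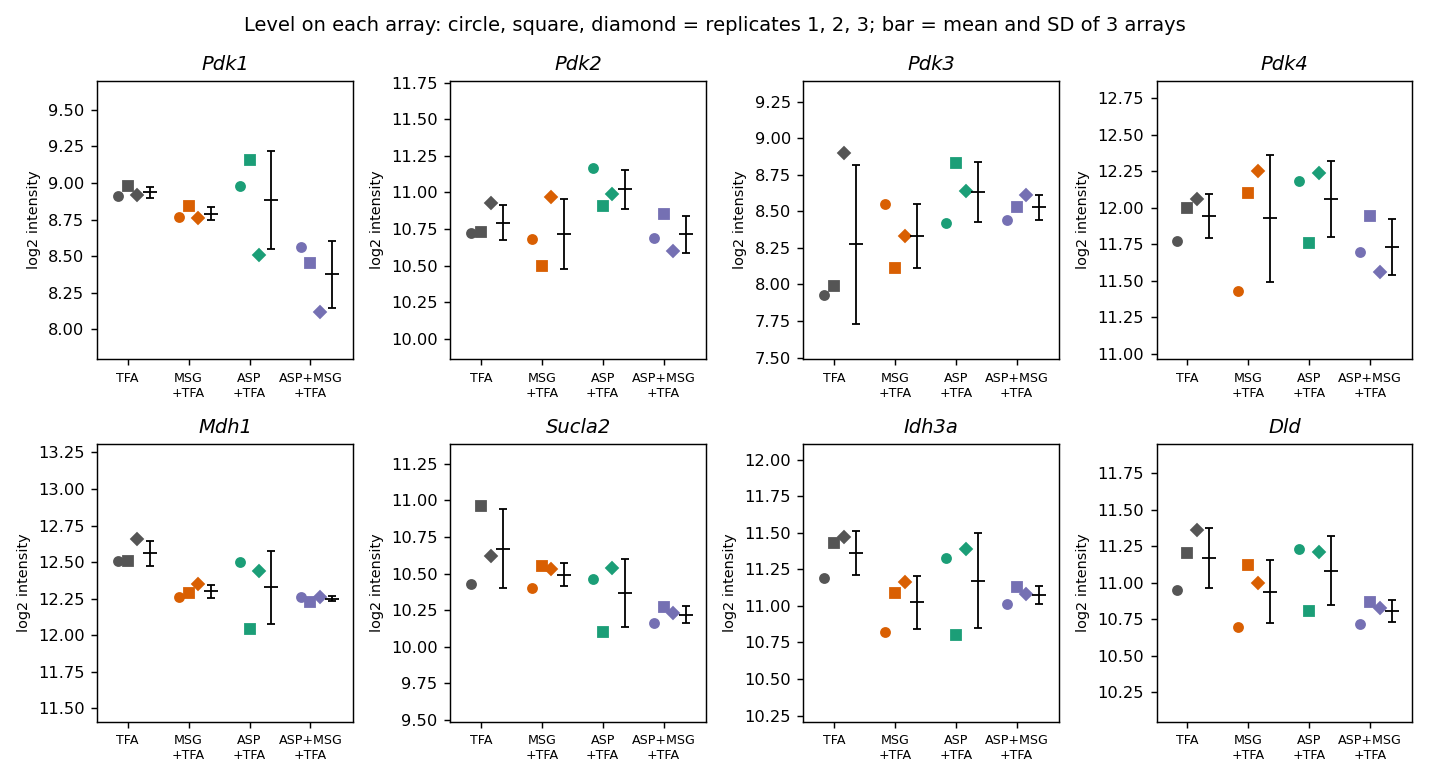
Log2 intensity of the 4 kinases (top) and of Mdh1, Sucla2, Idh3a and Dld (bottom) on each array, with symbols for replicates 1, 2 and 3 and a bar for the mean and SD of the 3 arrays of a diet. Pdk1 is lowest with both additives (8.12 to 8.56), and Pdk3 has a single high TFA array (8.90).

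The 4 kinases of the complex did not share a pattern against TFA. Pdk4, the fasting-induced kinase, measured 11.77, 12.00 and 12.06 in TFA, 11.43, 12.10 and 12.25 in MSG+TFA, 12.18, 11.76 and 12.24 in ASP+TFA and 11.70, 11.94 and 11.56 in ASP+MSG+TFA. Arrays of all diets overlapped, and differences from TFA were -0.02 (95% interval -0.51 to 0.47), 0.11 (-0.38 to 0.60) and -0.21 (-0.70 to 0.28). Pdk2, the most widely expressed kinase, measured 10.72, 10.73 and 10.93 in TFA, 10.68, 10.50 and 10.97 in MSG+TFA, 11.17, 10.91 and 10.99 in ASP+TFA and 10.69, 10.85 and 10.60 in ASP+MSG+TFA. Its largest difference from TFA was 0.23 ± 0.15 in ASP+TFA (limma adjusted p = 0.352), which was 0.03 with the raised arrays as a term.

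Pdk3 measured 7.93, 7.99 and 8.90 in TFA, 8.55, 8.11 and 8.33 in MSG+TFA, 8.42, 8.83 and 8.64 in ASP+TFA and 8.44, 8.53 and 8.61 in ASP+MSG+TFA. TFA replicate 3 was its highest array and TFA replicate 1 its lowest, and differences from TFA were 0.06 ± 0.24, 0.36 ± 0.24 and 0.25 ± 0.24. Without TFA replicate 3, Pdk3 was called in ASP+TFA (0.67 ± 0.16, limma adjusted p = 0.0189) and in ASP+MSG+TFA (0.57 ± 0.16, adjusted p = 0.0282), in fits that called 26.6% and 29.7% of all genes. Both remaining TFA arrays are raised. The phosphatase Pdp1 measured 7.84, 7.88 and 8.03 in TFA and 8.79, 8.04 and 8.07 with both additives, a difference of 0.39 with replicate 1 the highest of all 12 arrays.

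When ASP was added to MSG, 11 of 30 genes were lower in ASP+MSG+TFA than in MSG+TFA, and the median of the set was 0.05. Over all genes the median was -0.01, and over genes above the dim level 0.11. None was called (0% of all genes). Pdk1 (-0.41 ± 0.17, limma unadjusted p = 0.0372, adjusted p = 0.311) was the 1 gene with an unadjusted p under 0.05 and a lower level, against 12.6% of all genes, and arrays did not overlap for 3 lower genes (Pdk1, Sucla2 and Slc25a11), against 16.1%. With the mean or the brightest of the probe sets no gene of the set had such a p. The set's median was -0.07 without MSG+TFA replicate 1, -0.16 with the raised arrays as a term and -0.15 with only the arrays that were not raised. MSG+TFA has raised arrays and ASP+MSG+TFA none, and without them MSG+TFA keeps replicate 3 alone. The sign of the set therefore depended on how these arrays were treated.

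Adding MSG to ASP gave lower levels across the set again. In ASP+MSG+TFA 27 of 30 genes lay below ASP+TFA, by a median of -0.14 (range -0.51 to 0.08), while the median of all genes was -0.01 and that of genes above the dim level 0.00. No raised array is in either group. All 5 pyruvate dehydrogenase subunits (median -0.28), all 4 kinases (median -0.32), 13 of 15 cycle enzymes (median -0.10) and all 3 carriers (median -0.17) were on the lower side. None was called (0% of all genes). Pdk1 alone had an unadjusted limma p under 0.05 (-0.51 ± 0.17, unadjusted p = 0.0143, adjusted p = 1), where 0.771% of all genes had one with a lower level, and all its 13 probe sets lay below 0. With the mean or the brightest of the probe sets 0 genes had such a p, and with only the arrays that were not raised 3 had. Arrays did not overlap for 4 lower genes, Suclg1, Dlat, Pdk2 and Slc25a11, against 5.46% of all genes. The median moved from -0.08 without ASP+TFA replicate 1 to -0.22 without ASP+TFA replicate 2.

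The comparisons of MSG without and with ASP share no arrays. Of the 30 genes 25 (83.3%) were lower in both and 0 were higher in both, where 32% of all genes and 25.4% of genes above the dim level were lower in both. The 5 that were not lower in both were Slc25a11, Pdk3, Pdp1, Ogdh and Idh1. The count was 21 when TFA replicate 3 or MSG+TFA replicate 1 was left out, and 18 when each gene was read from its brightest probe set. It was 23 with only the arrays that were not raised, where MSG without ASP rests on replicate 3 of each diet. Of the set's 374 single probe sets 302 (80.7%) were below 0 for MSG on its own and 331 (88.5%) for MSG added to ASP, where 50.3% and 49.4% of all probe sets were below 0. The gene values are medians of these same probe sets, so this is no separate check. Genes of the set also moved together on an array, so neither these counts nor 25 of 30 are counts of independent members. Averaged over both backgrounds, a contrast added after the data had been seen, the median was -0.15 with 28 genes below 0. None was called (0% of all genes), and 2 of 30 genes had an unadjusted limma p under 0.05, Pdk1 (-0.33 ± 0.12, adjusted p = 1) and Dlat (-0.27 ± 0.12, adjusted p = 1), against 1.18% of all genes with a lower level. The 2 became 7 with the raised arrays as a term and 0 with the brightest probe set.

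**Figure D4:**
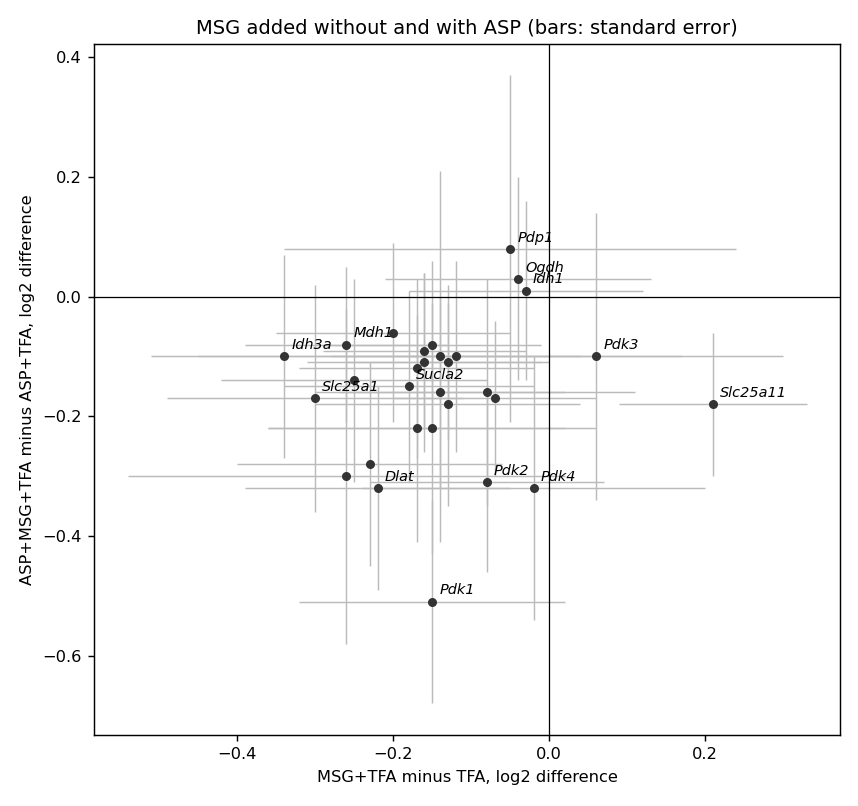
Log2 difference of each of the 30 genes for MSG added to TFA (horizontal) and for MSG added to ASP+TFA (vertical), with the SE as bars. Of the 30 points 25 lie left of and below 0, and Slc25a11 and Pdk3 are the points right of 0.

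The interaction of both additives, the difference between the MSG differences with and without ASP, had a median of 0.02 over the set with 14 genes below 0. All 4 kinases were below 0 (median -0.27). No gene was called (0% of all genes), and Slc25a11 alone had an unadjusted limma p under 0.05 (-0.39 ± 0.17, adjusted p = 1), against 0.619% of all genes with a negative interaction. With the replicate block 0 genes had such a p. In the limma F test over the 4 diets none of the 30 was called (0% of all genes). Pdk1 was the 1 gene of the set at an unadjusted p under 0.05 (limma unadjusted p = 0.0323, adjusted p = 0.257), against 18.1% of all genes.

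Other genes of the cycle and of pyruvate use, from a fixed list of 32 of which 30 were measured, had medians of -0.08 in MSG+TFA, 0.05 in ASP+TFA and -0.04 in ASP+MSG+TFA, with 21, 11 and 17 genes below TFA. None was called (0% of all genes), and at an unadjusted limma p under 0.05 there were 1, 0 and 1 lower and 0, 2 and 2 higher. Of all 20358 genes 216, 3190 and 3987 were lower at that p (1.06%, 15.7% and 19.6%), and 222, 1412 and 1863 were higher. The 4 subunits of succinate dehydrogenase, the cycle enzyme that is also part of the respiratory chain, lay below TFA with MSG (Sdha -0.08, Sdhb -0.42, Sdhc -0.11 and Sdhd -0.17) and with both additives (-0.16, -0.32, -0.05 and -0.17). Sdhb, its iron-sulfur subunit, measured 10.85, 10.94 and 11.23 in TFA and 10.41, 10.50 and 10.85 in MSG+TFA (-0.42 ± 0.16, limma unadjusted p = 0.0248, adjusted p = 1).

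Got1, the cytosolic aspartate aminotransferase of the malate-aspartate shuttle, was on the higher side. It measured 7.56, 7.54 and 8.01 in TFA, 8.30, 8.81 and 8.51 in ASP+TFA and 8.49, 8.31 and 8.49 in ASP+MSG+TFA, with no overlap with TFA (0.83 ± 0.19 and 0.73 ± 0.19, limma adjusted p = 0.186 and 0.123). In MSG+TFA the difference was 0.39 ± 0.19. The TFA values of 7.56 and 7.54 are from the raised arrays, and no ASP group has a raised array. Acss1, the mitochondrial acetyl-CoA synthetase, differed by 0.78 ± 0.25 in ASP+TFA (limma adjusted p = 0.186). It measured 7.4 and 7.25 on the raised TFA arrays and 8.14 on TFA replicate 3, against 8.42, 8.66 and 8.04 in ASP+TFA. The part of the raised arrays in the differences of Got1 and Acss1 was not tested. Lipt1, which takes part in attaching lipoate to the E2 subunits, differed by -0.39 ± 0.16 in ASP+MSG+TFA (limma adjusted p = 0.146).

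Other mitochondrial lists were on the lower side with MSG as well. Of 35 measured complex I genes 34 lay below TFA with MSG (median -0.15), 24 with ASP (-0.05) and 33 with both (-0.19), and 33 lay below ASP+TFA when MSG was added to ASP (-0.15). Of 20 fatty acid oxidation genes 18, 10 and 18 lay below TFA (medians -0.18, -0.02 and -0.16), and 19 lay lower when MSG was added to ASP (-0.16). The set was thus not alone in this direction, and no test of the difference between the lists was made.

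Markers of other cell types are given beside these values. The 12 macrophage markers had a median difference from TFA of 0.55 with MSG, 0.41 with ASP and 0.84 with both, with 12, 11 and 11 of 12 above 0, and 0.40 when MSG was added to ASP. Their summed level, in log2, ran from 12.81 to 13.54 in TFA, 13.08 to 13.98 in MSG+TFA, 13.20 to 14.04 in ASP+TFA and 13.76 to 14.08 in ASP+MSG+TFA. The 11 adipocyte markers differed from TFA by medians of -0.07, 0.03 and 0.04, with summed levels from 16.42 to 16.47 in TFA, 16.25 to 16.44 in MSG+TFA, 16.27 to 16.52 in ASP+TFA and 16.38 to 16.47 in ASP+MSG+TFA. The 8 brown or beige adipocyte markers differed by medians of -0.20, -0.11 and -0.50. Their summed level ran from 12.06 to 12.62 in TFA, 11.65 to 12.15 in MSG+TFA, 12.13 to 12.35 in ASP+TFA and 11.70 to 11.91 with both additives. Ucp1 lay under the dim level on every array (4.78 to 5.82). Dio2 was above it only on the raised TFA arrays (6.96 and 6.74). Cox8b, which the paper lists with oxidative phosphorylation genes, was the brightest of these markers and weighs most in their sum. It measured 11.54, 11.96 and 12.12 in TFA and 11.36, 11.42 and 11.14 with both additives. A change in brown or beige cells was not tested. Epididymis genes varied between arrays of every diet, with the list median from 6.09 to 12.32 within TFA, and a list of exocrine pancreas genes was high on TFA replicate 2 alone (Cela3b 10.12 there, at most 6.3 elsewhere). With the epididymis level, taken as the list median, as a covariate the set's median was -0.15 for MSG, 0.09 for ASP with 7 genes below 0, -0.07 for both with 21 below 0, and -0.16 for MSG added to ASP. The list median was low on TFA replicate 3 (6.62) and MSG+TFA replicate 3 (6.05). Their summed epididymis levels were 15 and 13.87, against 9.83 on TFA replicate 2. The covariate therefore misses epididymis signal on these arrays and cannot settle its part. Seminal vesicle genes had a list median of 12.85 on the third TFA array, 13.69 on the second ASP+TFA array and 13.47 on the first array with both additives, and stood between 5.16 and 6.27 on the other 9. All 8 lay below TFA with MSG (median -2.42). The 9 liver markers all lay above TFA with MSG (median 0.95) and with both additives (1.12), and all above ASP+TFA when MSG was added to ASP (1.16). Their list median was highest on ASP+MSG+TFA replicate 1 (10.31) and MSG+TFA replicate 3 (8.96), and 5.68 to 7.25 on the other 10 arrays. The 6 endothelium markers all lay above TFA in each additive diet (medians 0.18, 0.27 and 0.49). Beyond the epididymis covariate and its limit, the part of other cells in the differences of the set was not tested. In whole tissue fewer cells of a type and less RNA per cell cannot be told apart.

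**Figure D5:**
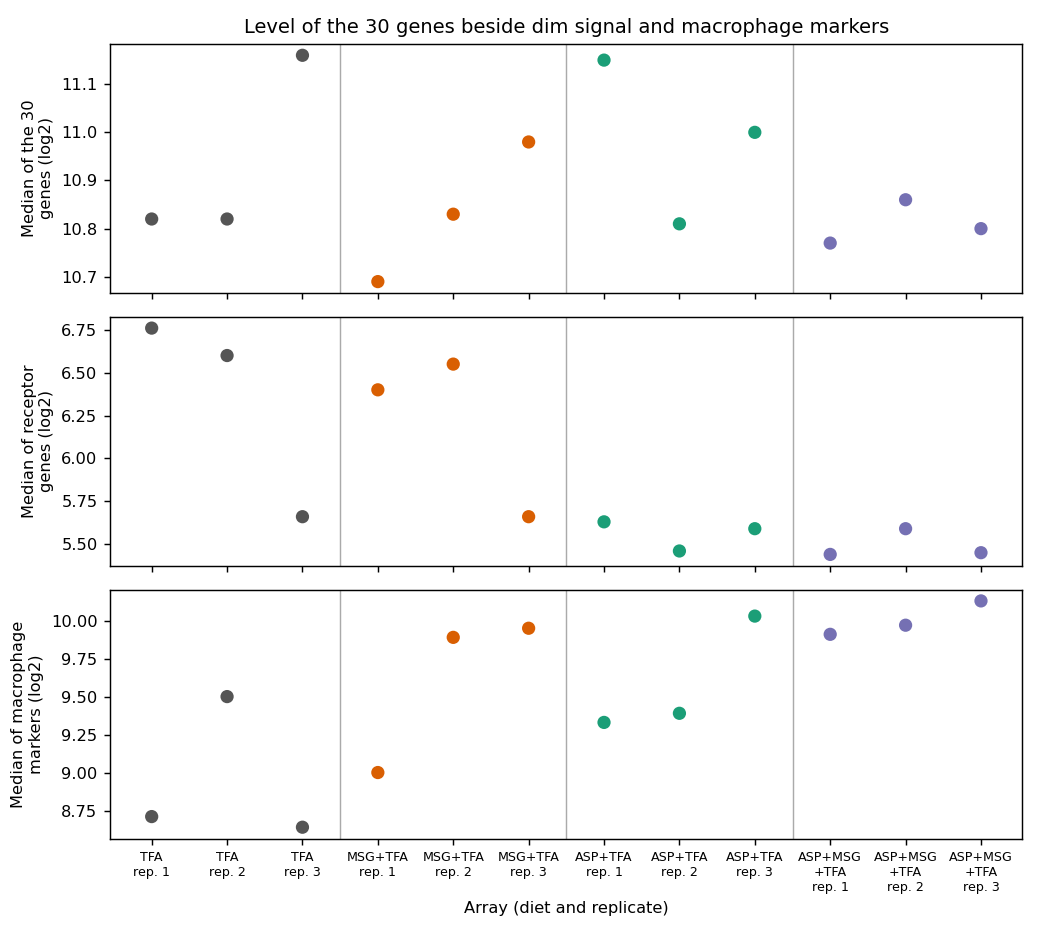
Median log2 level on each array of the 30 genes (top), of the receptor genes that measure dim signal (middle) and of the macrophage markers (bottom). The set is highest on TFA replicate 3 (11.16) and ASP+TFA replicate 1 (11.15), and the receptor genes stand at 6.40 or more on 4 arrays.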

How the data were processed

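Arrays were grouped and numbered by the sample titles. The deposited values are linear array intensity per probe set, normalized by the authors; Partek and GCRMA are named in the submitters' processing notes. The median intensity of an array was 144.9 to 150.6. Array number (3 per diet) limits the precision. Scanner files were not used here.

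Intensities were turned to log2. Of 241576 probe sets 212138 name exactly 1 gene in the platform annotation, and 24766 are unnamed. A gene's value was the median of its probe sets (median 8), over 20358 genes, so a probe set shared with another gene was left out (3 of Pdha1 and 1 of Pdhb). Symbols were updated through RefSeq (GRCm38.p6).

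Tests used R 4.3.3, limma 3.58.1 and data.table (version 1.17.8), with 1 mean per diet over all 12 arrays (8 residual degrees of freedom), two-sided, and Benjamini-Hochberg adjustment over all genes. The script was tested on simulated data. No p was adjusted over the set. Calls needed an adjusted p below 0.05 and a difference of 1.4-fold or more, without a fold limit for the interaction, the average over backgrounds and the F test. Per-array values were given for the 4 genes of the set with the smallest p in each comparison with TFA and for the 4 kinases. From the other cycle genes the 2 with the smallest p per comparison and the subunits of succinate dehydrogenase could be named. Further genes were named after their values were seen, where arrays did not overlap or a sign differed. The set, the lists, the limits and these rules were chosen with earlier results of these data known.

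Replicate numbers were checked for pairing through the correlation of deviations from the diet means. Same-numbered arrays of TFA and MSG+TFA gave 0.593, 0.632 and 0.661, each the highest that either array had with the other diet. Arrays with different numbers reached like values across other diets. Examples are 0.644 for MSG+TFA replicate 1 with ASP+TFA replicate 2 and 0.581 for TFA replicate 2 with ASP+MSG+TFA replicate 3. Replicates 1 and 2 of TFA and MSG+TFA are also the raised arrays. The correlations therefore do not show that the numbers mark a pairing. The labels name no shared litter, batch or day. For TFA and ASP+TFA the values were 0.243, -0.344 and -0.117. The replicate block was fitted as an alternative in every comparison, although no pairing was established for any diets. Alternatives covered the probe set summary, an offset of 32, genes above the dim level, quantile normalization, the raised arrays as a term or left out, the epididymis level as a covariate, other eBayes settings, the methods' analysis of variance, the replicate block, a fit of only the diets compared and each array left out in turn. The average of both MSG comparisons and the test of single probe sets were added after seeing the data.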

Additional observations from a re-analysis of the deposited data

How the results depend on the processing

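The median of the 30 genes was below 0 under all 25 settings for MSG+TFA against TFA (-0.22 to -0.04), for ASP+MSG+TFA against TFA (-0.36 to -0.02) and for ASP+MSG+TFA against ASP+TFA (-0.22 to -0.07). Many of the 25 cannot move a difference of diet means, so they do not test its sign. These are other eBayes settings, the analysis of variance, the replicate block and the fit of the diets compared. Leaving out an array of another diet cannot move it either. The term for raised arrays cannot move MSG+TFA against TFA, and neither setting of the raised arrays can move ASP+MSG+TFA against ASP+TFA. The median changed sign between settings for ASP+TFA against TFA (-0.19 to 0.12), ASP+MSG+TFA against MSG+TFA (-0.16 to 0.12) and the interaction (-0.09 to 0.07). With the raised arrays as a term the medians were -0.15 for ASP+TFA and -0.32 for ASP+MSG+TFA against TFA and -0.16 for ASP+MSG+TFA against MSG+TFA. With only the arrays that were not raised they were -0.19, -0.36 and -0.15, where TFA and MSG+TFA each keep replicate 3 alone. The cause was not tested. Under that setting Slc25a11 in MSG+TFA against TFA turned to -0.06, a difference between single arrays.

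Leaving out 1 array gave 0 to 1 genes of the set called in ASP+TFA and in ASP+MSG+TFA against TFA, the 1 being Pdk3 without TFA replicate 3, and 0 in every other comparison. The F test called 0 of the 30 under every setting, although without TFA replicate 3 it called 3786 genes in all. The methods' analysis of variance, before adjustment, called 0, 0, 1, 0 and 1 of the 30 in the 5 comparisons, in the order of the report (Pdk1 each time), beside 118, 2597, 3550, 1605 and 108 genes in all, and 0 after Benjamini-Hochberg adjustment. The replicate block called 0 of the 30 in each comparison. For MSG+TFA against TFA the median stayed at -0.15 by design, as each number occurs once per diet. The block gave 2 genes there at an unadjusted limma p under 0.05 in place of 0. It took the interaction from 1 such gene to 0 and ASP+MSG+TFA against TFA from 3 to 2, and changed no call after adjustment. Over all comparisons and settings, counts of genes at an unadjusted p under 0.05 stayed within 1.5 times 100 times and moved further 66 times. Signal over background limits Pdp2, which alone of the 30 had a mean level (5.97) under the dim level of 6.61.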

Other observations

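Got2, the mitochondrial aspartate aminotransferase of the malate-aspartate shuttle and a gene of the list of other cycle genes, was looked at after its values were seen, because it varied widely between arrays of every diet. It measured 11.21, 9.58 and 11.27 in TFA, 11.91, 9.90 and 10.60 in MSG+TFA, 10.74, 11.97 and 9.72 in ASP+TFA and 11.42, 11.59 and 10.14 in ASP+MSG+TFA. Crisp1, a secretory protein of the epididymis, measured 13.40, 5.60 and 13.85, 13.71, 5.75 and 12.47, 12.43, 13.08 and 5.92, and 13.36, 13.57 and 6.5 on the same arrays. The lowest array of each diet was the same for both genes.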
